A study of Mus musculus with 2 samples.

Results

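The cells described here lack VE-cadherin and come from the aorta-gonad-mesonephros region (AGM) of mouse embryos at embryonic stage E11.5, set against the same sorted population at E9.5. They were taken by the State given for each well in the deposited tables and by a minimum of 500 genes per well, which left 338 wells at E11.5 and 354 wells at E9.5, 692 of the 2954 wells in the tables of both stages. Embryos of both stages were wild-type C57Bl/6 mice, and the number of embryos behind a pool is not given in the sources used here. Live cells, negative for the dead-cell dye 7AAD, were sorted in bulk into a fraction that carries VE-cadherin, the junction protein of endothelium, and a fraction that lacks it, which the submitters call the microenvironment. The fractions were stained with the DNA dye Hoechst and dispensed on ICELL8 nanowell chips, where single cells were selected from images, with 1 chip for E11.5 and 1 chip for E9.5.

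The AGM is the embryonic tissue around the dorsal aorta, and the first blood stem cells capable of long-term engraftment are found in the wall of that vessel. The surrounding cells comprise mesenchyme, smooth muscle precursors, somite and sclerotome derivatives, nephric and gonadal primordia and nerve precursors, and they secrete factors such as Kit ligand, Cxcl12 and BMP4 that act on the vessel wall. Mesenchyme of this age turns from proliferating progenitors into tissue that lays down extracellular matrix, while the RNA-binding proteins of early embryos, Lin28a and Lin28b, which block maturation of the let-7 microRNAs, are switched off.

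Each pool of sorted cells is 1 sample, so no test across samples can be made and no p-value is given. Each pool's counts were added up, expressed as CPM, that is as the count of a gene for every 1000000 counts of the pool over the 18323 gene rows present in both tables, and compared as the log2 ratio of E11.5 over E9.5. The interval in brackets after a ratio is the exact 95% interval of the ratio given the counts, and it covers counting error only. Stage and chip are the same split and cannot be told apart from the sorted pools. Each chip carried positive controls, RNA from the mouse embryonic stem cell line E14FF, in 46 wells that passed the minimum of 500 genes. For many genes and lists the ratio is therefore set beside the ratio of these wells, E11.5 chip over E9.5 chip. A ratio printed without a control value carries no such comparison. In a pooled sample, fewer cells of a type and less RNA per cell cannot be told apart.

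The E11.5 pool held 1093602 counts and the E9.5 pool 1699711 counts, with medians per well of 2806.5 counts and 1295 genes at E11.5, against 4396 counts and 1814 genes at E9.5. Mitochondrially encoded RNA took 5.59% of all counts in the E11.5 pool and 3.43% in the E9.5 pool, and haemoglobin genes 3.47% (E11.5) and 4.30% (E9.5). Positive control wells held 147829 counts on the E11.5 chip and 310576 counts on the E9.5 chip. Negative control wells, which received no cell, held 17289 counts in 47 wells at E11.5 and 6452 counts in 48 wells at E9.5. The background was thus higher on the E11.5 chip in total. Per well, the negative control wells held 11.4% (E11.5) and 2.80% (E9.5) as many counts as the AGM wells. The background per well is given below for each named gene at which it passed 50% of that of the AGM wells in either stage. The deposited tables share 473 well barcodes, but none is shared by the AGM VE-cadherin negative wells of both stages.

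The gate label was checked on endothelial markers. No yolk sac value was set beside the mesenchyme markers given below, so the tissue label was not checked. Cdh5, which encodes VE-cadherin, had 14 counts (12.9 CPM) at E11.5, against 25 counts (14.8 CPM) at E9.5. The AGM VE-cadherin positive pools of the same chips had 345 (E11.5) and 831 (E9.5) counts. Pecam1, another endothelial junction gene, had 10 (E11.5) and 19 (E9.5) counts. Per well, the negative control wells held 71.9% (E11.5) and 77.6% (E9.5) as much Pecam1 as the AGM wells, and for Cdh5 no count at E11.5 and 59.0% as much at E9.5, each from 1 or 2 counts. After each well was thinned to 1500 counts, 2 of 307 wells at E11.5 and 1 of 354 wells at E9.5 held counts for 3 or more of the 12 endothelium markers. For mesenchyme markers the same rule was met by 111 of 307 wells (36.2%) at E11.5 and by 6 of 354 wells (1.69%) at E9.5, and by 1 of 43 positive control wells on the E11.5 chip and 0 of 46 on the E9.5 chip. Without thinning the shares were 68.6% (E11.5) and 26.0% (E9.5). Pdgfra, the receptor of mesenchymal progenitors, had 273 counts at E11.5, against 191 counts at E9.5, and Twist1, a mesodermal transcription factor, had 58 (E11.5) and 71 (E9.5) counts.

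Among 5252 genes that reached 50 counts in the higher of both pools, 613 (11.7%) were at least 2-fold higher and 563 (10.7%) at least 2-fold lower at E11.5. With a minimum of 20 counts over both pools, the level used for gene lists below, 10017 genes were measured, of which 1634 (16.3%) were at least 2-fold higher and 1082 (10.8%) at least 2-fold lower. The median log2 ratio of these genes was 0.09. In the positive control wells 2822 genes reached 20 counts over both chips, with 111 (3.93%) at least 2-fold higher and 564 (20.0%) at least 2-fold lower on the E11.5 chip and a median log2 ratio of -0.32. Of the genes called higher in the AGM pools, 501 of 613 were not measurable in the controls and 40 were at least 2-fold higher there too. Of the genes called lower, 316 of 563 were measured in the controls, and 79 were at least 2-fold lower there too. For 35 genes called higher (5.71%) and 1 called lower (0.178%), negative control wells held 25% or more of the AGM counts per well in the higher pool. Among called protein-coding genes, 20 of 550 higher ones (3.64%) and 138 of 492 lower ones (28.0%) had a close pseudogene copy. The share over all tested genes was not determined, so neither share can be read as high or low. The part of such copies in the counts was not tested. Called genes were higher in 52.1% of cases with CPM, in 41.0% with TMM scaling and in 75.6% once the control median was subtracted, and these settings moved the median of all measured genes to -0.06 and 0.42.

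**Figure D1:**
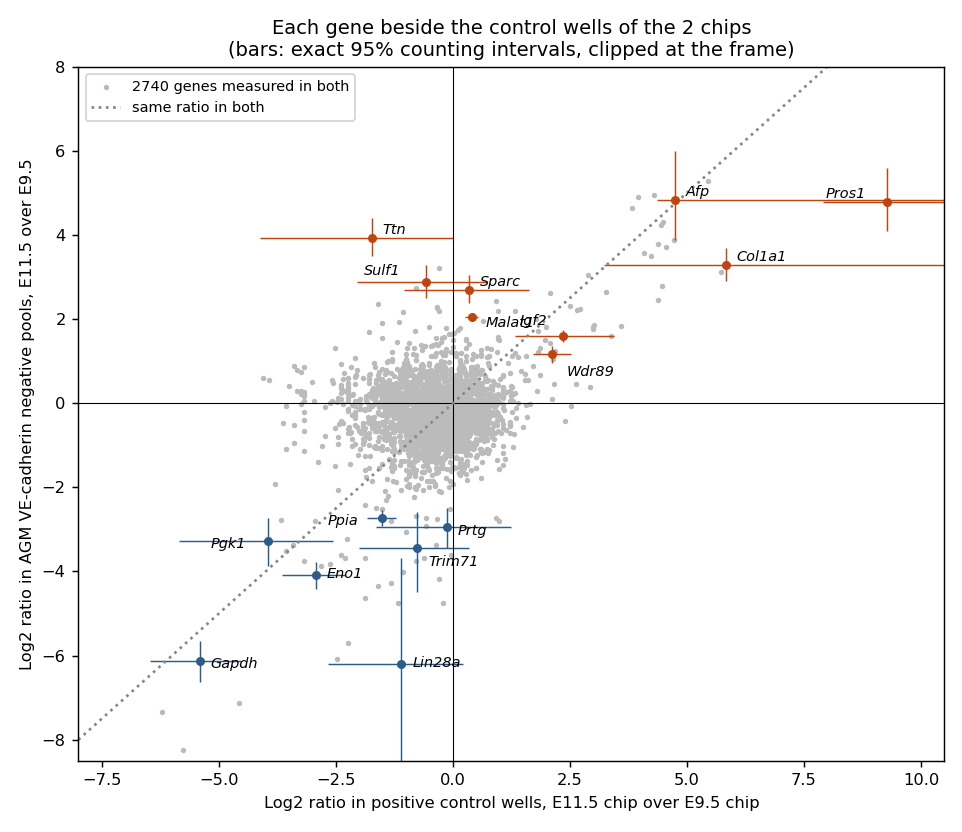
Log2 ratio of E11.5 over E9.5 in the AGM VE-cadherin negative pools (vertical axis) against the log2 ratio of the E11.5 chip over the E9.5 chip in positive control wells (horizontal axis) for 2740 genes measured in both; bars are exact 95% counting intervals, and a pool with 0 counts is placed at a floor of 3 counts. Gapdh, Pgk1 and Afp lie near the dotted line of equal ratios, while Ttn, Sulf1, Sparc, Lin28a, Trim71 and Prtg lie away from it. Their places follow from the naming rule and are no result. It took the former for a change the same way in the controls and the latter for an interval clear of the control interval.

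Genes of the extracellular matrix were higher at E11.5 as a group. Of the 15 collagen genes listed, all of which were measured, 14 were at least 2-fold higher at E11.5 and none was at least 2-fold lower, with a median log2 ratio of 3.11 against 0.09 over all measured genes. Col3a1, a fibrillar collagen of soft tissue, had 560 counts (516 CPM) at E11.5, against 188 counts (111 CPM) at E9.5, and its log2 ratio was 2.21 (1.97 to 2.46). Col1a1, the main collagen of bone and skin, had 415 (E11.5) and 66 (E9.5) counts, 382 (E11.5) and 39.1 (E9.5) CPM, with a ratio of 3.29 (2.91 to 3.69). Col12a1, a collagen that coats collagen fibrils, was at 146 (E11.5) and 4.14 (E9.5) CPM, 158 (E11.5) and 7 (E9.5) counts. Col14a1, of the same fibril-associated class, had 199 (E11.5) and 17 (E9.5) counts. Col6a1, Col6a2 and Col6a3, the chains of the beaded filament collagen VI, had 28, 27 and 47 counts at E11.5, against 4, 1 and 2 counts at E9.5. Col16a1, with 12 (E11.5) and 15 (E9.5) counts, was the 1 member within 2-fold, and the negative control wells of the E11.5 chip held 120% as much of it per well, from 2 counts. Over members with at least 100 counts the median of the list was 2.47.

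Control wells held collagen counts too. The positive control wells of the E11.5 chip held 27 counts of Col1a1, 13 of Col1a2 and 12 of Col3a1. Those of the E9.5 chip held 1, 0 and 0. Col1a1 was the 1 member measured in the controls, and its control ratio of 5.83 (3.23 to 11.18) was above the 3.29 of the AGM pools. The whole list summed to 483 (E11.5 chip) and 25.9 (E9.5 chip) CPM in the positive controls. Per well, the negative control wells of the E11.5 chip held 15.6% as much Col1a1, 28.0% as much Col1a2 and 19.3% as much Col3a1 as the AGM wells. With the mean of the negative control wells subtracted from each pool, a setting chosen after seeing the data, the median of the list was 3.17 and Col1a1 stood at 3.34. The cartilage collagen gene Col2a1 had no count in the negative wells of that chip, and 373 (E11.5) and 124 (E9.5) counts in the AGM pools.

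Other matrix groups lay on the same side. Of 15 measured matrix glycoproteins and microfibril genes, 12 were at least 2-fold higher at E11.5 and none 2-fold lower (median log2 ratio 1.87). Fibronectin, Fn1, was at 444 (E11.5) and 150 (E9.5) CPM, and tenascin C, Tnc, a glycoprotein of remodelling tissue, was at 101 (E11.5) and 8.88 (E9.5) CPM, with 18 of its 110 counts at E11.5 in a single well. Periostin, Postn, had 91 (E11.5) and 22 (E9.5) counts, and the elastic fibre gene Fbln5 had 26 (E11.5) and 2 (E9.5) counts. For proteoglycans the controls moved alike: over the 2 members measured there the medians were 1.31 in the AGM pools and 1.27 in the controls. The list summed to 4277 (E11.5) and 1720 (E9.5) CPM in the AGM pools. In the controls it summed to 340 (E11.5 chip) and 133 (E9.5 chip) CPM. Of 12 measured proteoglycan genes 8 were at least 2-fold higher (median 1.45). They included decorin (Dcn, 69 (E11.5) and 12 (E9.5) counts) and lumican (Lum, 95 (E11.5) and 19 (E9.5) counts), small proteoglycans of collagen fibrils for which the negative control wells of the E11.5 chip held 31.3% and 53.0% as much per well as the AGM wells, and glypican 3 (Gpc3, 1433 (E11.5) and 786 (E9.5) counts), a cell-surface proteoglycan that restrains growth. Osteoglycin, Ogn, had 32 counts at E11.5, against 0 at E9.5, higher at E11.5 by at least 4.05 on the log2 scale with a floor of 3 counts for the E9.5 pool. Hapln1, which links hyaluronan to proteoglycans, had 16 (E11.5) and 42 (E9.5) counts, within 2-fold.

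Basement membrane genes were less uniform, with 6 of 13 measured at least 2-fold higher at E11.5, 7 within 2-fold and a median of 0.82. The collagen IV chains Col4a1 and Col4a2 had log2 ratios of 0.82 and 0.79. The laminin chain gene Lama2, found in muscle, had 74 (E11.5) and 14 (E9.5) counts, whereas Lama1, the laminin chain of early embryos, had 25 (E11.5) and 76 (E9.5) counts. Sparc, a collagen-binding protein of basement membranes, had 402 (E11.5) and 96 (E9.5) counts and a ratio of 2.70 (2.38 to 3.04), against 0.34 (-1.04 to 1.62) in the controls. Of 16 measured genes of collagen modification and crosslinking 8 were at least 2-fold higher, with Plod2, a lysyl hydroxylase, at 174 (E11.5) and 44 (E9.5) counts and the prolyl isomerase gene Fkbp7 at 64 (E11.5) and 10 (E9.5) counts. Loxl1, a crosslinking enzyme of elastic fibres, was the 1 member at least 2-fold lower (19 counts at E11.5, 103 at E9.5), and its ratio was -1.80 in the AGM pools and -1.41 in the controls.

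Nuclear factor I genes encode DNA-binding proteins that drive the late phase of differentiation in brain, lung and muscle, and all 4 were at least 2-fold higher at E11.5 (median log2 ratio 4.33, and 3.40 with wells thinned to 1500 counts). Nfia (chr4:97772734-98118874, plus strand, GRCm38) had 587 counts at E11.5, against 37 counts at E9.5. These are 541 (E11.5) and 21.9 (E9.5) CPM, and the ratio was 4.63 (4.15 to 5.15). Nfib (chr4:82290173-82705750, minus strand) had 617 (E11.5) and 59 (E9.5) counts, 568 (E11.5) and 34.9 (E9.5) CPM, a ratio of 4.03 (3.64 to 4.44). A count of Nfia was found in 45.0% of wells thinned to 1500 counts at E11.5, against 2.82% at E9.5, and a count of Nfib in 46.6% (E11.5) and 4.24% (E9.5). Nfix had 25 counts (E11.5) and 1 count (E9.5), and Nfic 32 (E11.5) and 16 (E9.5) counts, with 8 of the 16 counts at E9.5 in 1 well. Control wells held 7 (E11.5 chip) and 2 (E9.5 chip) counts of Nfia and 8 counts of Nfib on each chip. Both are under the 20 counts needed to call the controls measured. As ratios of CPM these controls stood on the same side, at 2.88 (0.49 to 6.18) for Nfia and 1.07 (-0.54 to 2.68) for Nfib. Nfia overlaps the opposite-strand gene E130114P18Rik and Nfix overlaps Lyl1 and G430095P16Rik. Whether the counting used strand is not stated, so reads of such pairs cannot be told apart.

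**Figure D2:**
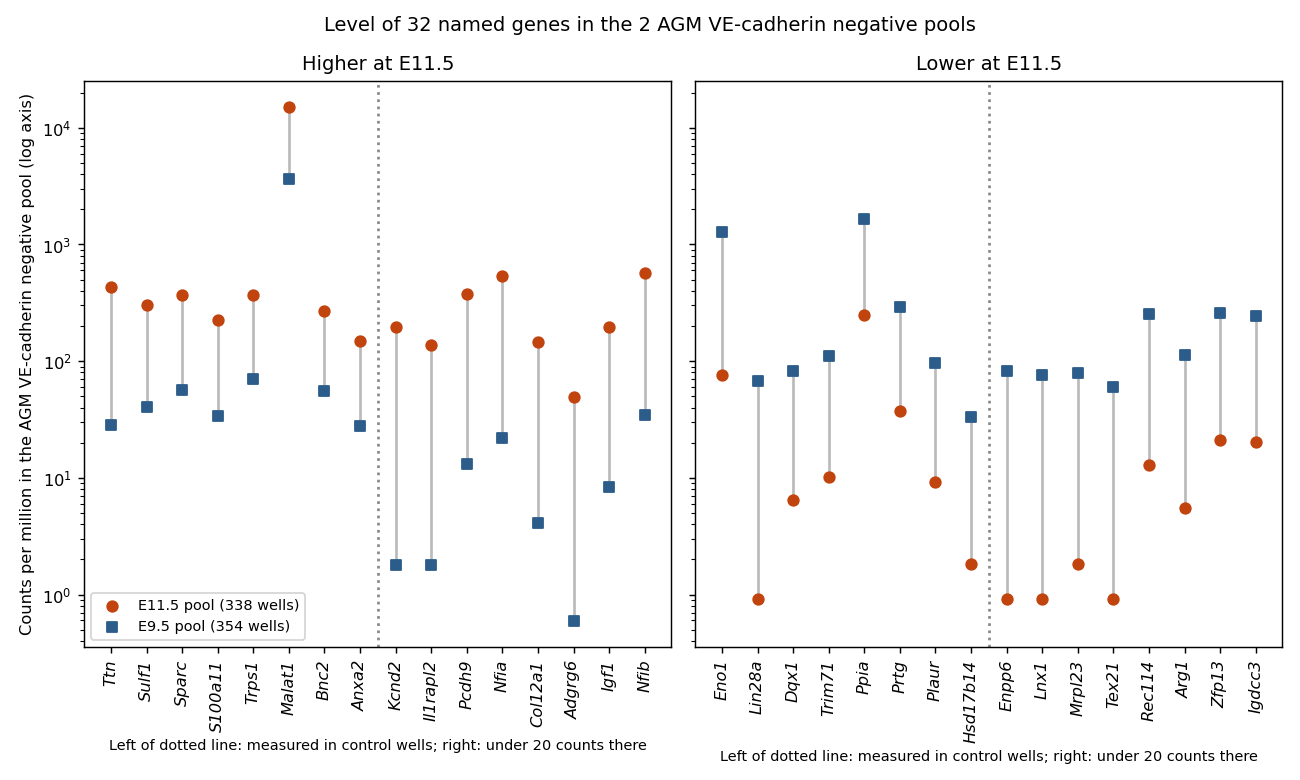
CPM on a log axis for 16 genes higher (left panel) and 16 genes lower (right panel) at E11.5, taken by a rule of size, with circles for the E11.5 pool and squares for the E9.5 pool and 1 pool for each stage. In each panel the 8 genes left of the dotted line were measured in the positive control wells and the 8 genes right of it had under 20 counts there. Nfia and Nfib stand at 541 and 568 CPM at E11.5, against 21.9 and 34.9 CPM at E9.5.

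The RNA-binding and growth programme of early embryos was lower at E11.5. Of 11 measured genes of the Lin28 list 8 were at least 2-fold lower at E11.5 and none 2-fold higher, with a median log2 ratio of -1.49 against 0.09 over all measured genes, and of -2.12 with wells thinned to 1500 counts. Over the 6 members measured in the controls the medians were -2.28 in the AGM pools and -0.63 in the controls. Of the 13 genes listed 10 carry a match to the let-7 seed in their 3′ untranslated regions, and let-7 is the microRNA family that Lin28 proteins hold back. Of 11 let-7 and miR-98 names in RefSeq (GRCm38.p6), 10 share the seed GAGGUAG at bases 2 to 8. Mature sequences of 4 of them are shown, with the seed in capitals, because the sites below pair with it; mature microRNAs were not analysed here.
mmu-let-7a-5p: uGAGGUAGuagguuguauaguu
mmu-let-7b-5p: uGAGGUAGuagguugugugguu
mmu-let-7g-5p: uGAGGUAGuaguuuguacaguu
mmu-miR-98-5p: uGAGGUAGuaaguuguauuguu

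The reverse complement of that seed, CTACCTC on the transcript strand, was searched in the 3′ untranslated regions of 1 transcript per gene of GENCODE M21 (GRCm38). It occurs in 9.17% of 20693 regions, whose median length is 986 bases. Lin28a holds 2 matches in 2775 bases, Lin28b 4 in 4445, Trim71 4 in 5512, Hmga2 4 in 3014, Igf2bp1 4 in 6337, Arid3a 2 in 3082 and Sall4 1 in 1697 bases. Hmga1, Igf2bp2 and Igf2bp3 hold 1 match each, and Mycn holds none. Among regions of like length (0.8 to 1.25 times), at least 1 match is found in 14.7% for Lin28a, 24.4% for Lin28b and 29.9% for Trim71. For Hmga2 it is 16.1% and for Igf2bp1 34.4%. The list includes known let-7 targets such as Trim71 and Hmga2, so its share of genes with a match is not read as a result. A match is a description of the sequence and no measure of binding. The sites shown belong to Lin28a, Lin28b, Trim71 and Igf2bp1, which were at least 2-fold lower, and to Hmga2, which was not, so that both can be compared, with the 7 matching bases in capitals and each site 22 bases long.
Lin28a, chr4:134005189-134005210, minus strand: cacagcctgttgaaCTACCTCa
Lin28a, chr4:134004551-134004572, minus strand: agatcgccacaaacCTACCTCa
Lin28b, chr10:45381022-45381043, minus strand: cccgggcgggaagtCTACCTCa
Trim71, chr9:114512472-114512493, minus strand: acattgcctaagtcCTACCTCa
Trim71, chr9:114512376-114512397, minus strand: gtgataatttctatCTACCTCa
Igf2bp1, chr11:95961778-95961799, minus strand: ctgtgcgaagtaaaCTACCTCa
Hmga2, chr10:120364224-120364245, minus strand: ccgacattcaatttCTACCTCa

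Lin28a had 1 count at E11.5 and 114 counts at E9.5, or 0.92 (E11.5) and 67.5 (E9.5) CPM, and its log2 ratio was -6.19 (-11.51 to -3.69). In the control wells Lin28a had 6 counts on the E11.5 chip and 27 on the E9.5 chip, a ratio of -1.10 (-2.66 to 0.21) that does not overlap the AGM interval. Lin28b had 24 (E11.5) and 224 (E9.5) counts, 22.1 (E11.5) and 133 (E9.5) CPM, with a ratio of -2.58 (-3.26 to -1.97); its controls had 2 (E11.5 chip) and 17 (E9.5 chip) counts, under the 20 needed. Trim71, a ubiquitin ligase and RNA-binding protein that is a classical let-7 target, had 11 (E11.5) and 187 (E9.5) counts and a ratio of -3.45 (-4.48 to -2.58), against -0.76 (-2.01 to 0.34) in the controls. Trim71 overlaps C130032M10Rik on the opposite strand. Sall4, a zinc finger factor of pluripotent and progenitor cells, had 3 (E11.5) and 75 (E9.5) counts and a ratio of -4.01 (-6.31 to -2.40).

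The difference was also seen in the share of wells. A Lin28a count was found in 0 of 307 thinned wells at E11.5 and in 9.89% of 354 wells at E9.5. The 0 allows a share of wells with a count of up to 0.977% when it is read as 3 wells, and of up to 1.19% by the exact 95% interval. Without thinning, 1 of 338 wells at E11.5 and 93 of 354 wells at E9.5 held a count. For Lin28b the shares were 2.61% (E11.5) and 16.7% (E9.5), for Trim71 0.651% (E11.5) and 11.3% (E9.5), and for Hmga1, a chromatin protein of proliferating embryonic cells, 2.28% (E11.5) and 13.3% (E9.5). Igf2bp1, which stabilises Igf2 and other growth RNAs, kept more of its level, with 134 (E11.5) and 450 (E9.5) counts and a ratio of -1.11 (-1.40 to -0.83) against -0.10 (-0.86 to 0.62) in the controls. Its relatives Igf2bp2 and Igf2bp3 had ratios of -0.29 and -0.34. Hmga2, a let-7 target and chromatin protein, did not share the direction, with 504 (E11.5) and 609 (E9.5) counts, 464 (E11.5) and 360 (E9.5) CPM and a ratio of 0.37 (0.19 to 0.54). Mycn, the Myc gene of early mesoderm and neural tissue, had 13 (E11.5) and 57 (E9.5) counts.

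**Figure D3:**
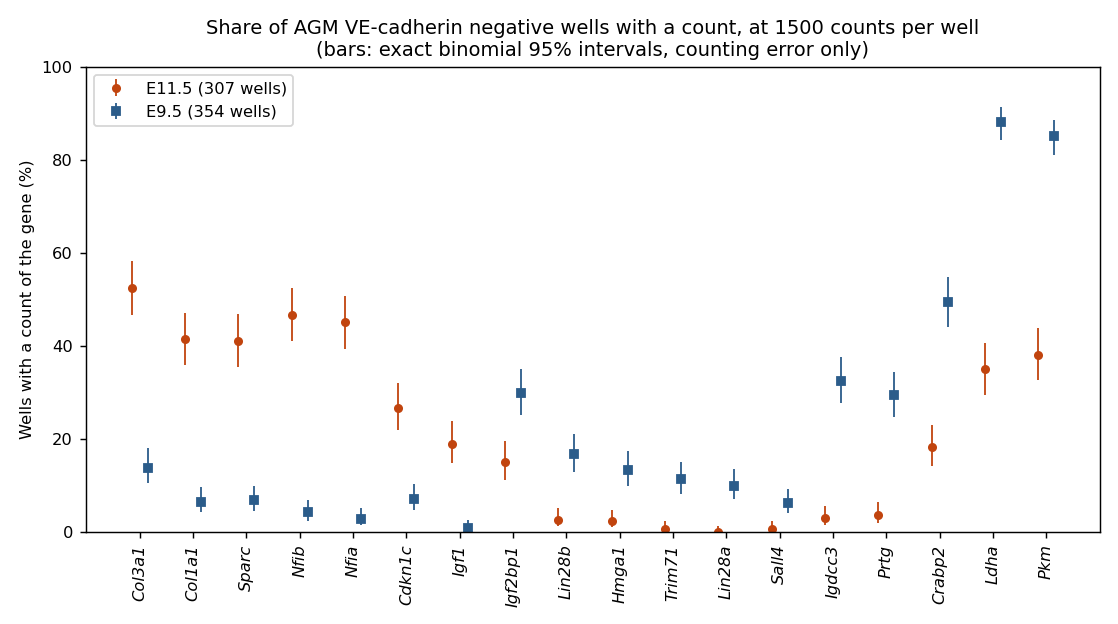
Share of AGM VE-cadherin negative wells with at least 1 count of a gene after every well was thinned to 1500 counts (307 wells at E11.5, circles; 354 wells at E9.5, squares), with exact binomial 95% intervals for counting error only. Collagen, Sparc, nuclear factor I, Cdkn1c and Igf1 shares are larger at E11.5; Lin28a, Lin28b, Trim71, Igdcc3, Prtg, Crabp2, Ldha and Pkm shares are smaller.

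Genes of glycolysis were lower at E11.5, but part of the list behaved alike in the control wells. Of 22 measured genes 15 were at least 2-fold lower at E11.5 and 3 at least 2-fold higher, with a median log2 ratio of -1.21. Over the 16 members measured in the controls the medians were -1.30 in the AGM pools and -0.47 in the controls. Gapdh had 38 counts at E11.5, against 4105 counts at E9.5, and the controls had 10 (E11.5 chip) and 896 (E9.5 chip) counts, so the ratios were -6.12 (-6.62 to -5.66) and -5.41 (-6.48 to -4.53). Pgk1 stood at -3.27 in the AGM pools and -3.95 in the controls, and Eno1 at -4.08 (-4.42 to -3.77) and -2.93 (-3.64 to -2.30). These genes have close copies among annotated pseudogenes, 172 for Gapdh, 4 for Pgk1 and 6 for Eno1, and the 2 tables differ in their gene annotation, so their counts are uncertain. Gapdh also overlaps Iffo1 on the opposite strand.

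Ldha, Pkm and Aldoa differed in the AGM pools by more than in the controls. Ldha, which makes lactate, had 380 (E11.5) and 2535 (E9.5) counts, 350 (E11.5) and 1500 (E9.5) CPM, a ratio of -2.10 (-2.26 to -1.94) beside -0.25 (-0.50 to 0.00) in the controls. Pkm, pyruvate kinase, had 368 (E11.5) and 2421 (E9.5) counts and a ratio of -2.08 (-2.24 to -1.92) beside -0.30 (-0.57 to -0.03). Aldoa, aldolase, stood at -2.23 (-2.49 to -1.97) beside -0.82 (-1.13 to -0.52). A count of Ldha was found in 34.9% of thinned wells at E11.5 and in 88.1% at E9.5. Ldha, Pkm and Aldoa have 13, 8 and 5 pseudogene copies. The glucose transporter gene Slc2a1 had 28 (E11.5) and 135 (E9.5) counts and Hk2, hexokinase, 63 (E11.5) and 217 (E9.5) counts. Ldhb, the subunit that favours lactate use, went the other way, with 172 (E11.5) and 90 (E9.5) counts and a ratio of 1.57 (1.20 to 1.96), beside -0.19 in the controls; Pfkm and Pfkp, with 31 and 16 counts at E11.5, against 22 and 8 counts at E9.5, were the other members 2-fold higher. The negative control wells of the E9.5 chip held 92.2% as much Pfkp per well as the AGM wells, from 1 count.

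Biosynthetic lists were lower by less. Of 17 measured genes of amino acid and one-carbon metabolism 8 were at least 2-fold lower and none 2-fold higher (median -0.99), and the 13 of them measured in the controls had a median of -1.09 in the AGM pools and -0.55 in the controls. Ahcy, which clears the product of methylation reactions, had 18 (E11.5) and 129 (E9.5) counts, and Cad of pyrimidine synthesis 11 (E11.5) and 92 (E9.5). Of 22 translation and ribosome assembly factors 9 were at least 2-fold lower (median -0.53, controls -0.18). Nhp2, a small nucleolar ribonucleoprotein, had a ratio of -2.52 (-2.81 to -2.24) beside -0.07 (-0.34 to 0.20) in the controls, and Npm1, nucleophosmin, had -1.10 (-1.19 to -1.01) beside 0.57 (0.40 to 0.72). Eef1a1 stood at -1.58 beside -1.87, so the control wells share that ratio. Cytosolic ribosomal protein genes had a median of -0.53 over 79 members, 16 of them at least 2-fold lower, against 0.34 in the controls.

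By their list medians, genes of cell division differed little once the controls are set beside them. The summed counts of mitotic genes differed by more in the AGM pools than in the controls. Of 23 mitotic genes 2 were at least 2-fold lower at E11.5 and none higher; the median was -0.42, and over the 20 members measured in the controls the medians were -0.40 in the AGM pools and -0.45 in the controls. The mitosis list summed to 5290 (E11.5) and 10368 (E9.5) CPM in the AGM pools. In the controls it summed to 6807 (E11.5 chip) and 9464 (E9.5 chip) CPM. Thinned AGM wells held a median of 6 (E11.5) and 16 (E9.5) counts of the list. Thinned positive control wells held 10 (E11.5 chip) and 14 (E9.5 chip). Mki67, the antigen of cycling cells, had 425 (E11.5) and 845 (E9.5) counts and a ratio of -0.35. Of 18 DNA replication genes 4 were at least 2-fold lower (median -0.65, controls -0.37), among them the helicase subunit Mcm5 (65 counts at E11.5, 249 at E9.5). Hmgb2, a chromatin protein of dividing cells, had 2333 (E11.5) and 10590 (E9.5) counts and a ratio of -1.54 (-1.61 to -1.48) beside -0.54 (-0.68 to -0.40). Cdkn1c, an imprinted inhibitor of cyclin-dependent kinases, had 263 (E11.5) and 95 (E9.5) counts and a ratio of 2.11 (1.76 to 2.46). Btg2, an antiproliferative gene, had 108 (E11.5) and 44 (E9.5) counts.

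Imprinted growth genes had a median of 1.13, with 9 of 17 measured at least 2-fold higher at E11.5 and none 2-fold lower. H19, a noncoding RNA of the Igf2 locus, had 2370 (E11.5) and 1372 (E9.5) counts (2183 CPM at E11.5, 812 at E9.5), and Igf2 had 1231 (E11.5) and 638 (E9.5) counts (1134 CPM at E11.5, 378 at E9.5), ratios of 1.43 and 1.59. Control wells of the E11.5 chip also held more of both, 42 counts of H19 and 29 of Igf2, against 21 and 12 in those of the E9.5 chip, so their control ratios were 2.07 and 2.35. Plagl1, an imprinted zinc finger factor, had 129 (E11.5) and 36 (E9.5) counts. Peg3, Grb10 and Mest, with ratios of 0.81, 0.70 and 0.15, stayed within 2-fold.

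**Figure D4:**
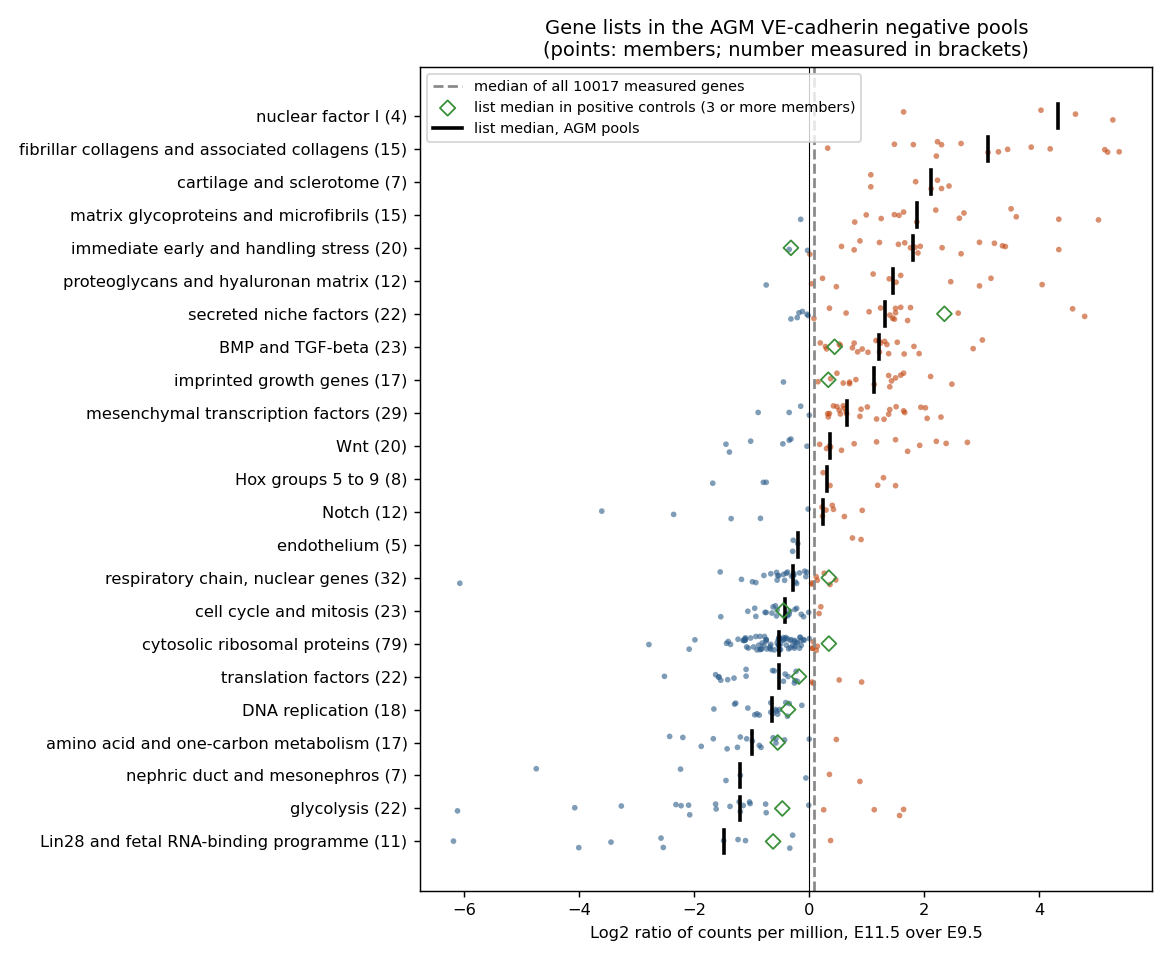
Log2 ratios of list members (points, with the number measured in brackets) in the AGM VE-cadherin negative pools, E11.5 over E9.5; black bars are list medians, open diamonds are control medians where 3 or more members were measured in the positive control wells, and the dashed line is the median of all 10017 measured genes, 0.09. Medians run from 4.33 for nuclear factor I to -1.49 for the Lin28 list, while those of mitosis genes and their controls lie close together.

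Secreted factors that reach the vessel wall were higher or nearly level. Of 22 measured genes 13 were at least 2-fold higher at E11.5 and none 2-fold lower (median 1.32). Over the 3 members measured in the controls, Igf2, Mdk and Pros1, the medians were 1.59 in the AGM pools and 2.35 in the controls. Igf1, insulin-like growth factor 1, had 215 counts at E11.5, against 14 at E9.5, 198 (E11.5) and 8.28 (E9.5) CPM, a ratio of 4.58 (3.80 to 5.47), and was found in 18.9% of thinned wells at E11.5 and in 0.847% at E9.5. The negative control wells held no Igf1 count on the E11.5 chip and 52.7% as much per well as the AGM wells on the E9.5 chip, from 1 count. Cxcl12, the chemokine that retains blood stem cells, had 273 (E11.5) and 152 (E9.5) counts and a ratio of 1.48 (1.19 to 1.78). Positive control wells held 6 (E11.5 chip) and 2 (E9.5 chip) counts of Cxcl12, under the 20 needed. Their ratio stood on the same side, at 2.66 (0.17 to 6.00). Bmp4, a ventralising signal, had 50 (E11.5) and 33 (E9.5) counts and a ratio of 1.24 (0.58 to 1.92). Its controls, with 5 (E11.5 chip) and 4 (E9.5 chip) counts, were also under the 20 needed and had a ratio of 1.39 (-0.82 to 3.73). Ptn, pleiotrophin, had 1195 (E11.5) and 658 (E9.5) counts, while Mdk, its relative midkine, had 696 (E11.5) and 1353 (E9.5) counts and a ratio of -0.32 (-0.45 to -0.19), with -0.75 in the controls. Rspo3, an amplifier of Wnt signals, had 54 (E11.5) and 14 (E9.5) counts. Kitl, which encodes Kit ligand, had 42 (E11.5) and 71 (E9.5) counts and a ratio of -0.12 (-0.71 to 0.45), and Wnt5a had 27 (E11.5) and 33 (E9.5) counts and a ratio of 0.35 (-0.44 to 1.13); both intervals include 0. Pros1, protein S of the clotting system, had 302 (E11.5) and 17 (E9.5) counts, but the positive control wells held 1175 counts of it on the E11.5 chip and 4 on the E9.5 chip.

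Among receptors and mediators, the BMP and TGF-beta list had 14 of 23 measured members at least 2-fold higher and none lower (median 1.21). Tgfb2 had 148 (E11.5) and 32 (E9.5) counts, its receptor Tgfbr2 31 (E11.5) and 6 (E9.5), the BMP receptor Bmpr1b 211 (E11.5) and 93 (E9.5), and the BMP target Id3 286 (E11.5) and 154 (E9.5). Smad1 to Smad4, the cytoplasmic mediators, had ratios from 0.19 to 0.52. In the Igf system, Igfbp5 and Igfbp3, binding proteins, had 688 and 40 counts at E11.5, against 242 and 10 counts at E9.5, whereas the receptor gene Igf1r had a ratio of 0.78 (0.54 to 1.01). Wnt genes split: Ror1, a Wnt receptor (325 counts at E11.5, 109 at E9.5), and the antagonist Dkk2 (52 at E11.5, 12 at E9.5) were higher, and the nuclear effector Lef1 (33 at E11.5, 135 at E9.5), the target Axin2 (12 at E11.5, 38 at E9.5) and Wnt4 (4 at E11.5, 17 at E9.5) were lower, with 7 higher and 3 lower of 20 measured. Of 12 Notch genes none was 2-fold higher and 3 were lower: the ligands Dll1 (3 counts at E11.5, 24 at E9.5) and Jag2 (12 at E11.5, 48 at E9.5) and the target Hes5 (1 at E11.5, 19 at E9.5).

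Factors that mark position and lineage also differed between the stages. Of 8 measured Hox genes of groups 5 to 9, which mark the trunk, 3 were at least 2-fold higher at E11.5. Another 4 were within 2-fold and 1 was lower, with a median of 0.30. Hoxa9, Hoxb6 and Hoxc5 were higher (76, 67 and 55 counts at E11.5, against 52, 37 and 35 at E9.5). Hoxb9 was lower (12 at E11.5, 60 at E9.5). Hoxc5 overlaps Hoxc10, Hoxc9, Hoxc8 and Hoxc6 on the same strand. Of 4 measured genes of the anterior groups 1 to 4, 2 were within 2-fold. Hoxb2 and Hoxb4 were lower (4 and 15 counts at E11.5, against 18 and 50 at E9.5). Hoxa10, the 1 gene measured of the posterior groups 10 to 13, was higher (27 at E11.5, 8 at E9.5). Crabp2, a retinoic acid carrier, had 165 (E11.5) and 750 (E9.5) counts and a ratio of -1.55 (-1.80 to -1.30), with a count in 18.2% (E11.5) and 49.4% (E9.5) of thinned wells. Of 29 mesenchymal transcription factors 12 were at least 2-fold higher and none lower (median 0.65). Foxp2 had 558 (E11.5) and 227 (E9.5) counts, Ebf2 235 (E11.5) and 90 (E9.5), Ebf3 226 (E11.5) and 85 (E9.5) and Prrx1 138 (E11.5) and 68 (E9.5), while Meis1, Meis2, Zeb1 and Zeb2 had ratios from 0.48 to 0.61.

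The lists of neighbouring cell types differed in both directions. Sclerotome and cartilage markers were higher, 7 of 7 measured, with Sox5 at 477 (E11.5) and 138 (E9.5) counts, Sox9 at 73 (E11.5) and 54 (E9.5), Pax1 at 42 (E11.5) and 15 (E9.5) and Pax9 at 37 (E11.5) and 16 (E9.5); 3 or more of these markers were found in 11.7% of thinned wells at E11.5 and in 1.13% at E9.5. The sclerotome and cartilage list summed to 1270 (E11.5) and 335.5 (E9.5) CPM in the AGM pools. In the positive controls, where no member was measured, it summed to 88.5 (E11.5 chip) and 6.47 (E9.5 chip) CPM. Of 10 measured somite and muscle markers 7 were higher. Pax7 of muscle progenitors and Ttn of sarcomeres had 21 and 470 counts at E11.5, against 8 and 48 at E9.5, whereas Pax3, of the early somite, had 20 (E11.5) and 117 (E9.5) and Meox1 had 48 (E11.5) and 144 (E9.5). A single well held 100 of the 470 Ttn counts at E11.5, and the list median was 0.69 without the 5% of wells with most counts and 1.36 with all wells. Of 8 measured smooth muscle genes 6 were higher and 1 lower, with Acta2 at 208 (E11.5) and 88 (E9.5) counts, Myh11 at 26 (E11.5) and 4 (E9.5), and Des, the intermediate filament of muscle and the lower member, at 3 (E11.5) and 21 (E9.5). Epithelial and nephric markers were lower in 3 of 3 and 4 of 7 measured: Krt18 had 12 (E11.5) and 51 (E9.5) counts, Krt8 6 (E11.5) and 28 (E9.5), Cldn6 2 (E11.5) and 19 (E9.5), Eya1 24 (E11.5) and 86 (E9.5), and Sall1 1 (E11.5) and 42 (E9.5). Of 14 epithelial markers in both tables only these 3 keratin and claudin genes were measured, with a median of -1.58. The other 3 of the 7 nephric markers were within 2-fold, and ratios of the list reached 0.88. The nephric median was -1.20, and -0.43 over members with at least 100 counts. The negative control wells of the E11.5 chip held 1 count of Cldn6, 360% as much per well as the AGM wells. Of 11 measured neuron and neural tube markers 2 were higher, 2 lower and 7 within 2-fold (median 0.33). The higher members were Dcx (21 counts at E11.5, 9 at E9.5) and Nefl (26 at E11.5, 15 at E9.5), and the lower ones Pax6 (1 at E11.5, 39 at E9.5) and Crmp1 (7 at E11.5, 27 at E9.5). Of 4 measured gonad and adrenal markers 1 was higher, 1 lower and 2 within 2-fold (median -0.02, and -0.62 with negative control wells subtracted). Wt1, of the gonadal and mesonephric ridge, had 47 (E11.5) and 20 (E9.5) counts and was the higher member, and Wnt4, with 4 (E11.5) and 17 (E9.5) counts, the lower one.

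Blood markers were few, and RNA of red cells and liver was also found in wells without a cell. Runx1, the factor that starts blood formation, had 24 counts at E11.5, against 2 at E9.5, a ratio of 4.22 (2.21 to 7.35), in 2.61% (E11.5) and 0.282% (E9.5) of thinned wells. Kit, the receptor of Kit ligand, had 29 counts at each stage, a ratio of 0.64 (-0.16 to 1.43). The embryonic globins Hbb-bh1 and Hba-x had ratios of -1.99 and -1.45 and Hbb-y 0.46, but the negative control wells of the E11.5 chip held 87.4%, 53.9% and 89.7% as much per well as the AGM wells. At E11.5 the Hbb-bh1 and Hbb-y levels were thus close to those of wells without a cell, and Hba-x was higher in the AGM wells. Afp, the fetal serum protein, had 166 (E11.5) and 9 (E9.5) counts, a ratio of 4.84; the empty wells held 134% (E11.5) and 81.9% (E9.5) as much per well, and Afp is therefore not read as expression by these cells. Of 14 macrophage markers 3 were measured: Mrc1 was higher (22 counts at E11.5, 8 at E9.5), Fcgr1 lower (1 at E11.5, 30 at E9.5) and Cx3cr1 within 2-fold (21 at E11.5, 46 at E9.5), with a median of -0.49, and of -1.76 with negative control wells subtracted. The empty wells held 131% (E11.5) and 92.2% (E9.5) as much Mrc1 per well as the AGM wells. Csf1r, the receptor of macrophages, was under the 20 counts needed, with 5 (E11.5) and 0 (E9.5) counts.

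Further lists are given by their counts and medians, beside 0.09 over all measured genes. Of 32 nuclear genes of the respiratory chain none was 2-fold higher and 3 were 2-fold lower at E11.5, with a median of -0.29 in the AGM pools and 0.34 in the controls; with the median ratio of all control genes subtracted the list stood at 0.03. Cholesterol synthesis genes had a median of -0.27 over 17 members, with 2 lower, and the hypoxia list 0.08 over 9 members, with 1 higher and 1 lower. Hedgehog genes, whose ligand comes from notochord and gut, had a median of 0.75 over 8 members with 2 higher, and retinoid genes 0.24 over 11 members with 2 higher and 1 lower. The endothelium list had a median of -0.20 over 5 measured members, all within 2-fold.

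Genes that respond within minutes to stress or dissociation were higher at E11.5 as well. Of 20 measured 14 were at least 2-fold higher and none lower (median 1.80), with Fos at 135 (E11.5) and 27 (E9.5) counts, Egr1 at 80 (E11.5) and 20 (E9.5), Jun at 448 (E11.5) and 221 (E9.5) and Klf4 at 26 (E11.5) and 2 (E9.5). Of the heat shock genes in the list, Hsp90aa1 had a ratio of -0.35 and Hsph1 of 0.01, while Dnajb1 had 1.89. Only 4 members were measured in the controls, with medians of -0.01 in the AGM pools and -0.32 in the controls. Malat1, a noncoding RNA retained in the nucleus, had 16434 (E11.5) and 6147 (E9.5) counts, 15141 (E11.5) and 3637 (E9.5) CPM, a ratio of 2.06 (2.02 to 2.10) beside 0.40 (0.26 to 0.54) in the controls. The part of handling and of nuclear RNA in the other results was not tested.

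Other genes were named by a rule of size and interval. Kcnd2, a potassium channel, had 213 counts at E11.5, against 3 at E9.5, Pcdh9, a protocadherin, 406 (E11.5) and 22 (E9.5), and Adgrg6, an adhesion receptor needed by Schwann cells and cartilage, 54 (E11.5) and 1 (E9.5). Il1rapl2 had 150 (E11.5) and 3 (E9.5) counts, with 51 of the 150 counts at E11.5 in 1 well, and overlaps Tex13a on the opposite strand. Sulf1, which trims heparan sulphate, Trps1, a transcriptional repressor active in cartilage, and Bnc2, a zinc finger factor of mesenchyme, had 327, 397 and 293 counts at E11.5, against 69, 120 and 94 at E9.5. S100a11 and Anxa2, calcium-binding proteins, had 244 and 161 counts at E11.5, against 57 and 47 at E9.5. Wdr89 had a ratio of 1.16 in the AGM pools and of 2.12 in the controls.

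The genes that were lower at E11.5 covered several kinds of function. Prtg, protogenin, and Igdcc3, immunoglobulin superfamily members of early neural and mesodermal tissue, had 41 and 22 counts at E11.5, against 494 and 411 at E9.5; a count was found in 3.58% and 2.93% of thinned wells at E11.5 and in 29.4% and 32.5% at E9.5. Arg1, arginase, had 6 (E11.5) and 192 (E9.5) counts and no count in any control well or negative control well. Plaur, the urokinase receptor, had 10 (E11.5) and 162 (E9.5) counts, Enpp6 1 (E11.5) and 140 (E9.5), Dqx1 7 (E11.5) and 140 (E9.5), Hsd17b14 2 (E11.5) and 56 (E9.5), Tex21 1 (E11.5) and 102 (E9.5) and Mrpl23 2 (E11.5) and 135 (E9.5). Mrpl23 was lower in other sorted pools of the same chips too. Its ratio was -5.44 in the AGM VE-cadherin negative pools, -4.25 in the yolk sac VE-cadherin negative pools and -5.99 in the AGM VE-cadherin positive pools. Positive control wells held 0 (E11.5 chip) and 9 (E9.5 chip) counts of Mrpl23, and it has 1 pseudogene copy. Zfp13 had 23 (E11.5) and 438 (E9.5) counts, 15 of the 23 in 1 well. Rec114 and Lnx1, with 14 and 1 counts at E11.5, against 425 and 128 at E9.5, overlap Nptn and Fip1l1 on the opposite strand. The negative control wells of the E11.5 chip held 1 count of Rec114, 51.4% as much per well as the AGM wells. Ppia had 268 (E11.5) and 2777 (E9.5) counts with a ratio of -2.73 beside -1.52 in the controls and has 37 pseudogene copies. Akr1b3, Snf8 and Nt5dc2 were lower in the AGM pools and in the controls, where each had 1 count on the E11.5 chip. Akr1b3 stood at -2.77 (-4.03 to -1.73) in the AGM pools and -3.68 (-9.04 to -1.08) in the controls, Snf8 at -1.09 (-1.74 to -0.48) and -3.57 (-8.93 to -0.96), and Nt5dc2 at -1.14 (-1.65 to -0.66) and -3.17 (-8.55 to -0.52), so the intervals overlap for each gene.

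**Figure D5:**
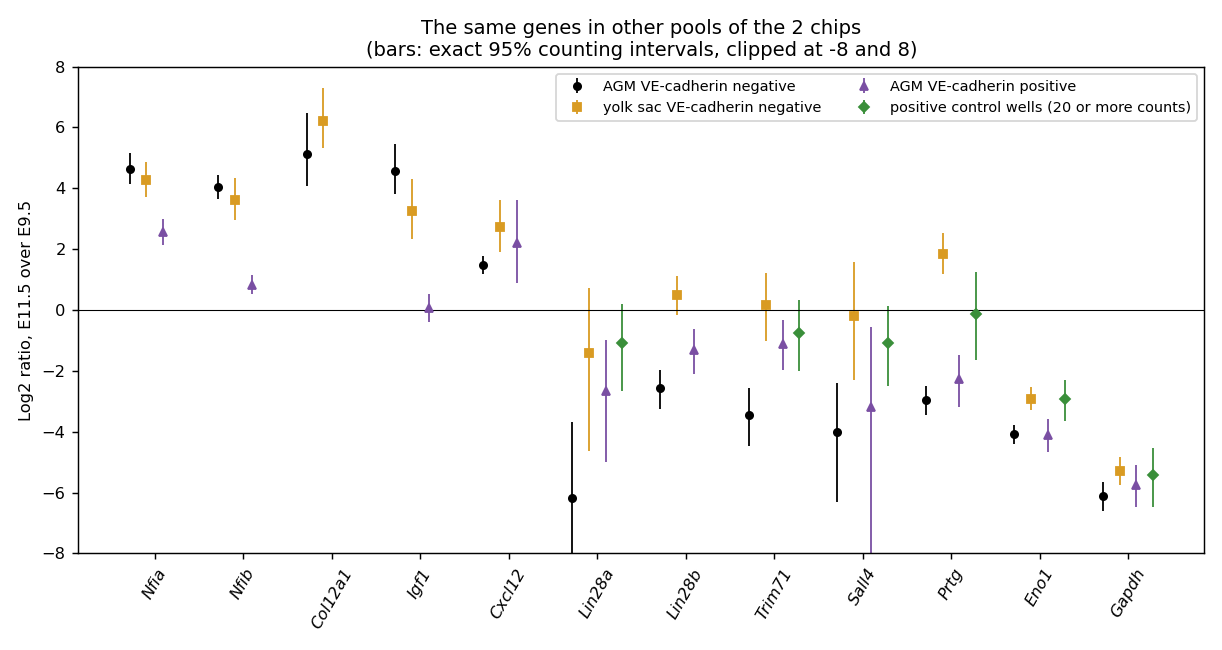
Log2 ratio of E11.5 over E9.5 for 12 genes in the AGM VE-cadherin negative pools, the yolk sac VE-cadherin negative pools, the AGM VE-cadherin positive pools and the positive control wells (shown from 20 counts), with exact 95% counting intervals. Nfia and Nfib lie above 0 in all 3 kinds of sorted pool, Lin28b, Trim71 and Prtg lie below 0 in the AGM pools and at or above 0 in the yolk sac pools, and Gapdh and Eno1 lie below 0 in every kind of well.

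The same genes were read in other sorted pools of the same chips, where differences between pools could not be tested. Nfia had ratios of 4.63 in the AGM VE-cadherin negative pools, 4.28 in the yolk sac VE-cadherin negative pools and 2.55 in the AGM VE-cadherin positive pools, and Nfib 4.03, 3.62 and 0.83. Igf1 stood at 4.58 (3.80 to 5.47), 3.27 (2.34 to 4.32) and 0.08 (-0.39 to 0.53). Lin28b stood at -2.58 (-3.26 to -1.97), 0.48 (-0.18 to 1.11) and -1.33 (-2.11 to -0.61), and Trim71 at -3.45 (-4.48 to -2.58), 0.15 (-1.03 to 1.23) and -1.11 (-1.98 to -0.32). Prtg stood at -2.95 (-3.45 to -2.49), 1.84 (1.18 to 2.53) and -2.27 (-3.18 to -1.48). In the same order of pools the collagen list was at a median of 3.11, 3.67 and 3.52, and the Lin28 list at -1.49, 0.53 and -1.33. Gapdh was at -6.12, -5.28 and -5.74, close to the -5.41 of the control wells.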

How the data were processed

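Single cells sorted from wild-type embryos were measured by RNA sequencing on 1 ICELL8 chip for each stage. The authors deposited 1 table of raw counts per gene and well for each stage. Per the submitters' processing notes the tools included FastQC, cutadapt and STAR and the builds mm10 and GRCm38; versions, annotation, counting tool and the use of molecular identifiers and strand are not given in the sources used here. Deposited counts of wells with 500 or more genes were summed per State over the 18323 gene rows in both tables, since 2500 rows at E11.5 and 2252 rows at E9.5 are in 1 table only. Ratios of CPM carry exact conditional binomial intervals and shares of wells Clopper-Pearson intervals at 95%; both cover counting error only, and counts may include copies of 1 molecule. A pool with 0 counts was set at 3 counts. Total counts limit precision to the intervals given. With 1 sample per stage no test was run. Called genes had a 2-fold ratio and a minimum of 50 counts for the higher pool; lists used genes with at least 20 counts over both pools. Genes were named among called genes with a count in 10% of the higher pool's wells, without haemoglobin, ribosomal, mitochondrial and unnamed genes. In each direction these were the 8 with the interval bound farthest from 0 whose interval lay clear of the control interval, the 8 with that bound farthest from 0 among genes under 20 counts in the controls, and the 5 with the largest control ratio on the same side, plus 12 genes named whatever their values. Wells were thinned to 1500 counts for shares. The gene lists and members were chosen with earlier results of these data known, and genes outside the naming rule come from the lists. Alternatives covered well filters, scaling, count minimums and control wells. The pooling and intervals were tested on simulated data. Python 3.11.15, numpy 2.4.6, pandas 2.3.3, scipy 1.17.1, matplotlib 3.10.9, R 4.3.3 with edgeR 4.0.16 (TMM factors only) and blastn 2.17.0+ (pseudogene copies, 90% identity over 200 bases) were used.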

Additional observations from a re-analysis of the deposited data

Results flagged for a closer look

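Several values stood on opposite sides of 0 in different pools of the same chips, and none of these differences was tested. Prtg had a log2 ratio of E11.5 over E9.5 of -2.95 in the AGM VE-cadherin negative pools and of 1.84 in the yolk sac VE-cadherin negative pools. Hsd17b14 stood at -4.17 in the AGM VE-cadherin negative pools and at 2.44 in the yolk sac VE-cadherin negative pools. Tex21 stood at -6.03 in the AGM VE-cadherin negative pools and at 1.48 in the AGM VE-cadherin positive pools. Among marker lists, somite and muscle had a median of 1.36 in the AGM VE-cadherin negative pools and of -1.24 in the yolk sac VE-cadherin negative pools. Coelomic and surface epithelium had -1.58 and 1.06 in the same order of pools, and gut endoderm -1.58 and 2.57.

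Some genes have a row in 1 of the tables only and entered no comparison. Galnt2 had 313 counts in the AGM VE-cadherin negative wells at E11.5 and a row in that table alone. Jpt1 had 305 counts at E9.5 and a row in that table alone; the same gene is listed in the E11.5 table under its older symbol Hn1, with 129 counts, and joining both rows gave a log2 ratio of -0.60.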

How the results depend on the processing

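No paired analysis was possible because each stage has 1 pool of each kind and no test was run. The counts of genes called (613 higher and 563 lower at E11.5) moved by over 1.5 times under 5 settings. They were 313 and 257 with wells thinned to 1500 counts, where fewer counts reach the minimum. They were 1292 and 997 with a minimum of 20 counts for the higher pool and 320 and 309 with a minimum of 100, which test more and fewer genes. With the median ratio of the positive controls subtracted they were 956 and 308, by construction, since every ratio moves up. The lower count was 322 among protein-coding genes that had no pseudogene copy and were not 2-fold lower in the controls, a setting chosen after seeing the data, as were the subtraction of negative control wells and the joining of renamed symbols. The median of the pluripotency list was -0.90 with members of at least 100 counts and 1.16 with both measured members, by construction, since fewer genes remain. No named gene with a 2-fold ratio changed sign under the 13 settings run on them. Cdh5, Pecam1 and Kitl, whose intervals include 0, changed sign under some of them. With negative control wells subtracted the liver and visceral endoderm list stood at 0.63 and Cdh5 at 1.22. With wells thinned to 1500 counts the log2 ratio of Trim71 was -4.38, of Runx1 3.21 and of Lin28a, with no count at E11.5 and the floor of 3 counts, -3.38. With negative control wells subtracted that of Igf1 was 5.79. Genes with few counts in a pool are limited by depth, as their intervals show.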
